A study of Arabidopsis thaliana with 4 samples.

Results

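Genes of the Arabidopsis thaliana mitochondrial genome were followed in whole seedlings of the rps2a2b mutant, the atprmt3 mutant and the Col wild type. The members were all identifiers that start with ATMG in the count tables, 152 of 33341 genes. The seedlings were 12 days old and had grown on MS medium with 1% sucrose, at 22 °C and with daily periods of 16 h light and 8 h dark. There was 1 library of rps2a2b, 1 of atprmt3 and 2 of Col, all made from mRNA with a strand-specific dUTP method. The labels name the mutants by genotype only, and the nature of the alleles is not given in the sources used here.

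Plant mitochondria keep a small genome that encodes core subunits of the respiratory chain and ATP synthase, proteins of the mitochondrial ribosome, factors that attach haem to cytochrome c, and the ribosomal and transfer RNAs of the organelle. All other mitochondrial proteins are encoded in the nucleus and imported. Poly(A) tails on plant mitochondrial RNAs mark them for decay, so a library made from mRNA samples these transcripts incompletely. PRMT3 is an arginine methyltransferase that acts on a protein of the small cytosolic ribosomal subunit, and the series title places both mutants in a study of pre-ribosome assembly.

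The mitochondrial genome of Arabidopsis also lies, in large part, in the nucleus. In the RefSeq TAIR10.1 reference, the mitochondrial sequence of 367808 bases was cut into overlapping stretches of 50 bases, and 70.4% of them occurred also in chromosome 2. A region at chr2:3187162-3565533 held 98% of all nuclear stretches that matched the mitochondrial sequence. Of the stretches in this region, 68.65% occurred in the mitochondrial sequence. Only 28.9% of the mitochondrial stretches were found nowhere else in the nuclear, plastid or mitochondrial sequence. Of 33 annotated protein-coding genes, 16 had no unique stretch, and 8 had at least 50% unique stretches. The genes that were unique throughout were ccmB, nad9, cox1, nad4L and atp4, and the 3 ribosomal RNA genes were unique over at least 99.6% of their length. The mitochondrial sequence the authors aligned to may differ from the RefSeq one, so these shares describe the RefSeq sequence only.

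**Figure D1:**
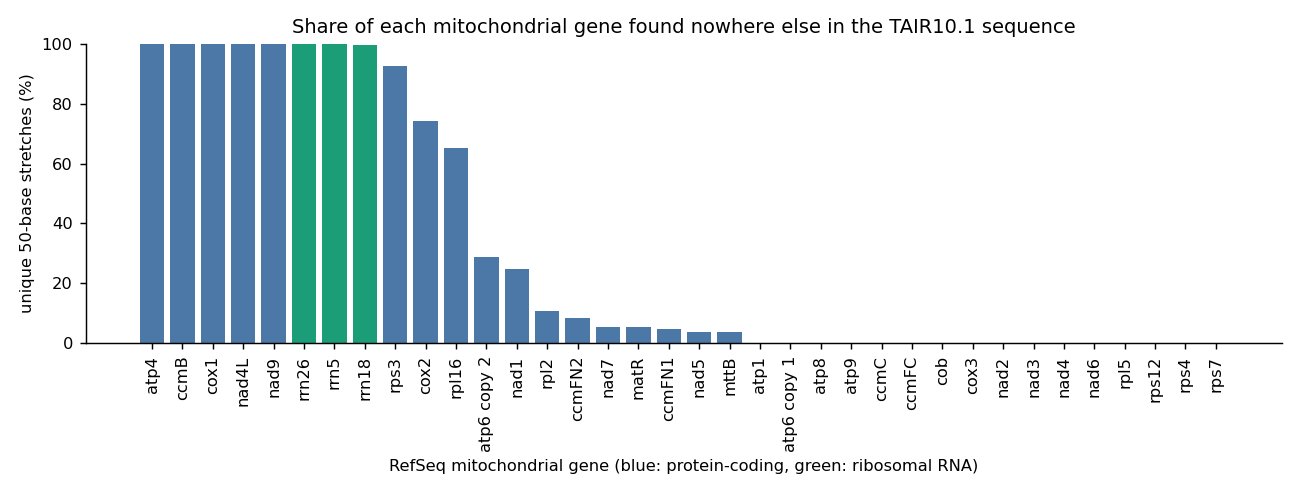
Share of 50-base stretches of each RefSeq mitochondrial gene (bars, in percent) that occur once in the TAIR10.1 nuclear, plastid and mitochondrial sequences. Protein-coding genes are blue and ribosomal RNA genes green, and 16 protein-coding genes stand at 0.

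The sequences below show what a read has to tell apart in the RefSeq reference. The coding sequence of atp9, the ring subunit of the membrane part of ATP synthase, is given from the mitochondrial genome (chrMT:270961-271185, minus strand) and from its copy on chromosome 2 (chr2:3251856-3252080, minus strand), both written 5′ to 3′. Differing bases would be in capitals, and the copies differ at 0 of 225 bases.
atp9, mitochondrial sequence: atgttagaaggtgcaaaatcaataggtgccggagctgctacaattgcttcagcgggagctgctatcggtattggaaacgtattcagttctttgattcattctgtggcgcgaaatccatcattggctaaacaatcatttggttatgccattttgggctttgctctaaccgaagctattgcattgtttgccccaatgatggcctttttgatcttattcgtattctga
atp9, copy at AT2G07671: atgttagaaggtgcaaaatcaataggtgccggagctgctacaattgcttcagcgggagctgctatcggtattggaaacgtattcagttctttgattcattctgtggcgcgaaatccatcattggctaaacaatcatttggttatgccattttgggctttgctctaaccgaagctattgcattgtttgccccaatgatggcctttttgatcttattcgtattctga
A stretch of 200 bases inside the rpl2 gene, for a protein of the large subunit of the mitochondrial ribosome, differs between the mitochondrial genome (chrMT:222070-222269, minus strand) and chromosome 2 (chr2:3411521-3411720, plus strand) at the 2 bases in capitals.
rpl2, mitochondrial sequence: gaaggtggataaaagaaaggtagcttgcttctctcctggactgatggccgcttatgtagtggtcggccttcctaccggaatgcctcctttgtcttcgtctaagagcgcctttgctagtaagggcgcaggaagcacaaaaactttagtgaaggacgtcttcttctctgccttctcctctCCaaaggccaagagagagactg
rpl2, copy at AT2G07715: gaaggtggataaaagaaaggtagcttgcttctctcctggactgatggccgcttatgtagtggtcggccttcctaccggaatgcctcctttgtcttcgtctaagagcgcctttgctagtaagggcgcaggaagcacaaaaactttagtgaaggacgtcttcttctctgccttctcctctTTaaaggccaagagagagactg

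The reference pairs 53 of the 152 identifiers with a named nuclear copy through notes on nuclear genes, and names and roles below are taken from those notes alone. The other 99 identifiers, which held 99.0% of all mitochondrial counts, are not paired with a gene name in the reference used here and are given as identifiers. Identifier lengths are not in the count tables, so levels are not compared between genes.

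Total counts on genes were 15194770 in rps2a2b, 18650053 in atprmt3, and 15646735 and 15637192 in the Col libraries. The count tables hold a class of reads with more than 1 alignment, set aside from the genes, of 1221806 reads in rps2a2b, 1401083 in atprmt3, and 1233850 and 1270787 in Col. It was 59.5 times the summed mitochondrial counts in rps2a2b, 67.9 times in atprmt3, and 89.4 and 90.1 times in Col, and how many of these reads were mitochondrial cannot be read from the files. PRMT3 (AT3G12270) had 132 counts in atprmt3, against 237 and 254 in Col, 0.430 times the Col level, and 315 in rps2a2b. The reference used here does not pair the names in rps2a2b with identifiers, so no such check was made for that library. The 4 shoot markers summed to a normalised read count of 21790 counts per 1000000 (CPM) in rps2a2b, 27900 in atprmt3 and 36370 in Col, and they did not move alike. RBCS1A was at 0.763 times the Col level in rps2a2b and 1.05 times in atprmt3, CAB1 at 0.543 and 0.678 times, CAB2 at 0.336 and 0.310 times, and LHCB4.1 at 0.647 and 0.824 times. Root markers summed to 34.9, 25.5 and 26.7 CPM in the same order, so both organs were represented. The root markers did not move alike either. EIR1 was at 1.302 times the Col level in rps2a2b and 0.706 times in atprmt3, and EXPA7 at 1.605 and 1.751 times. SHV2 was at 1.286 and 1.295 times, and NRT2:1 at 0.644 and 1.006 times. The 3 flower markers summed to 3.606, 5.827 and 4.103 CPM, with AP3 at 0 counts in both mutants, against 2 and 4 in Col, and PI at 20 counts in each mutant, against 4 and 5 in Col. The part of these differences in the results below was not tested.

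The Col libraries differed by no more than counting noise over the 19494 genes whose summed counts reached 20 (chi-square of 0.988 per gene, p = 0.877, where counting noise alone gives about 1). They were therefore counted as 1 sample, and every genotype had n = 1. The spread between plants of a genotype is unknown, no test between genotypes was possible, and a gene is described as different where it lay at least 2-fold apart. Over the 31 mitochondrial identifiers that reached 20 counts, the chi-square between the Col libraries was 2.02 for each gene. The members thus differed between these libraries by more than counting noise, and counting intervals are too narrow for them. Among the 20 that passed the expression filter with 100 or more Col counts, Col library 2 lay between -0.55 and 0.47 of library 1 on the log2 scale, and 0 of them differed by 1.5-fold. Over the 35 filtered identifiers with a value, the range was wider, from -1.58 (ATMG00010) to 1.59 (ATMG00830). Of these 35, 2 differed by more than 2-fold between the Col libraries and 8 by more than 1.5-fold. Intervals given below are exact conditional binomial (Clopper-Pearson) intervals at 95%. They cover counting error only, and reads that come in groups would widen them.

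Mitochondrial identifiers took a larger share of all counts in the mutants, and that share was held by a pair of identifiers. The 152 identifiers summed to 20525 counts in rps2a2b and 20619 in atprmt3, against 13805 and 14101 in the Col libraries. This was 0.135% of all counts on genes in rps2a2b (95% interval 0.133% to 0.137%), 0.111% in atprmt3 (0.109% to 0.112%), and 0.0882% and 0.0902% in Col. The share in rps2a2b was 1.51 times that in Col (1.49 to 1.54), the share in atprmt3 was 1.24 times that in Col (1.22 to 1.26), and the share in rps2a2b was 1.22 times that in atprmt3 (1.20 to 1.25).

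ATMG00020 had 11280 counts in rps2a2b and 12649 in atprmt3, against 6130 and 6304 in Col. Scaled by library size, it was 1.70 times the Col level in rps2a2b (1.66 to 1.75) and 1.63 times in atprmt3 (1.59 to 1.67). ATMG01390 had 6975 counts in rps2a2b and 5916 in atprmt3, against 4080 and 4256 in Col. It was 1.57 times the Col level in rps2a2b (1.52 to 1.62) and 1.14 times in atprmt3 (1.099 to 1.175). Both mutant libraries lay above both Col libraries for each identifier, by less than 2-fold. Together these made up 88.9% of mitochondrial counts in rps2a2b (88.5% to 89.4%), 90.04% in atprmt3 (89.6% to 90.4%) and 74.4% in Col (73.9% to 74.9%). Neither is paired with a gene name in the reference used here. Whether they are ribosomal RNA genes, and how much of such RNA was left in each mRNA library, was not tested.

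The other 150 identifiers together lay lower in the mutants. They summed to 2270 counts in rps2a2b and 2054 in atprmt3, against 3595 and 3541 in Col. Their share of all counts was 0.655 times that of Col in rps2a2b (0.624 to 0.687) and 0.483 times in atprmt3 (0.460 to 0.507). The share in rps2a2b was 1.36 times that in atprmt3 (1.28 to 1.44). In whole seedlings, fewer cells rich in these transcripts and less RNA per cell cannot be told apart. Differences in poly(A) tails, or in the reads set aside for several alignments, were not tested either.

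**Figure D2:**
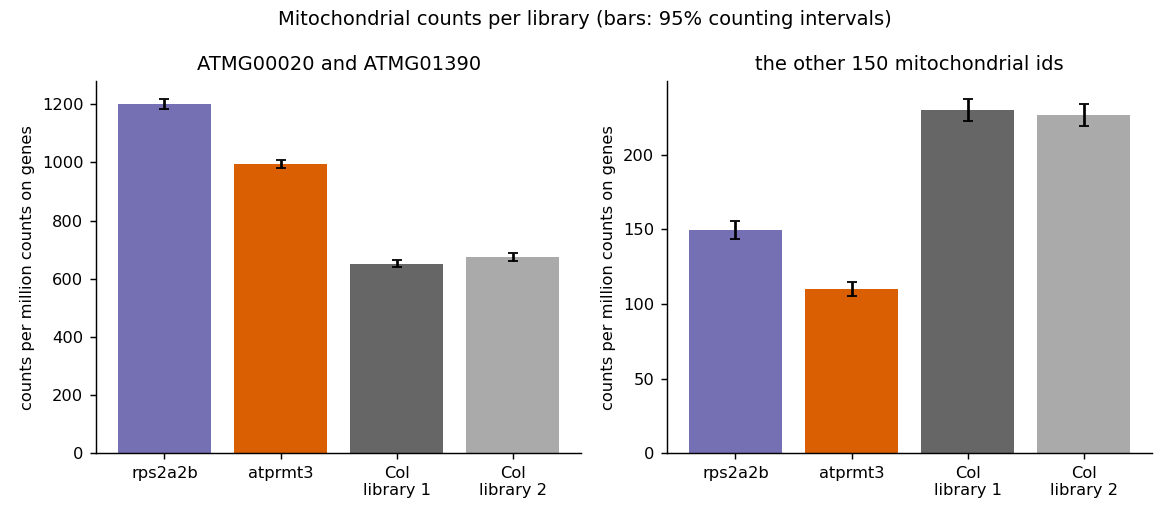
Summed counts of mitochondrial identifiers per 1000000 counts on genes in each library, for ATMG00020 and ATMG01390 together (left) and for the other 150 identifiers (right), with 95% counting intervals as error bars. The pair reached 1201 in rps2a2b and 995 in atprmt3 against 653 and 675 in Col, while the other identifiers summed to 149 and 110 against 230 and 226.

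Of the 152 identifiers, 88 had no count in any library, 14 had between 1 and 9 counts in all, and 50 had 10 or more. For reads with 1 alignment, a count of 0 allows up to 0.187 CPM in rps2a2b, 0.159 in atprmt3 and 0.0993 in the summed Col libraries, each from 3 counts. It sets no limit on transcripts whose reads have several alignments, which were set aside from the genes. The expression filter left 37 identifiers. A few of these, such as ATMG01350 and ATMG00450, were counted almost only in a mutant and passed through it, and ATMG01220, ATMG00560 and ATMG00285 were counted mostly in Col and passed through Col, so the counts over the 37 describe the filtered set and not all members.

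Against Col, 19 of the 37 identifiers were at least 2-fold lower in atprmt3 and 5 at least 2-fold higher. Over all 20937 genes that passed the filter, 6.21% were at least 2-fold lower and 8.95% at least 2-fold higher. The median log2 ratio of the 37 was -1.13, and that of all genes was 0.01. The 95% counting interval lay wholly below 1 for 26 of the 37, where the same held for 31.7% of all genes, and wholly above 1 for 7 and for 33.3%. At 1.5-fold, 34 of the 37 lay apart, against 31% of all genes. Models fitted across all genes took their spread from the Col libraries alone, so they compare the reads of these libraries and not the genotypes. At an adjusted p of 0.05, edgeR's quasi-likelihood test called 28 of the 37 (53.7% of all genes) and DESeq2 called 17 (19.3% of all genes).

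ATMG01360 had 78 counts in atprmt3, against 261 and 251 in Col, 0.244 times the Col level (0.190 to 0.310). ATMG00580 had 101 counts in atprmt3, against 286 and 247 in Col, 0.303 times the Col level (0.243 to 0.376). ATMG00640 had 25 counts in atprmt3, against 73 and 101 in Col, 0.230 times the Col level (0.145 to 0.351). For these and for ATMG00080, ATMG01170, ATMG00670 and ATMG00660, whose ratios ran between 0.280 and 0.394, the atprmt3 library lay below both Col libraries. ATMG00040 had 9 counts in atprmt3, against 38 and 59 in Col, 0.148 times the Col level (0.0659 to 0.294). ATMG00665 and ATMG00285 had 0 counts in atprmt3, against 16 and 30 in Col for ATMG00665 and 11 and 19 for ATMG00285, which makes them at least 9.58-fold and 6.25-fold lower from the floor of 3 counts. ATMG00090 and ATMG00160, next by counts after the leading pair, were lower by less than 2-fold. ATMG00090 had 540 counts in atprmt3, against 791 and 780 in Col, 0.550 times the Col level (0.498 to 0.607). ATMG00160 had 311 counts in atprmt3, against 464 and 422 in Col, 0.562 times the Col level (0.492 to 0.640).

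In rps2a2b, 12 of the 37 identifiers were at least 2-fold lower than in Col and 5 at least 2-fold higher. Without Col replicate 1 these were 13 and 4, and without Col replicate 2 they were 12 and 3. Over all genes, 6.19% were at least 2-fold lower and 9.97% at least 2-fold higher. The median log2 ratio of the 37 was -0.70, against 0.01 over all genes. Without ATMG00020 and ATMG01390 the median was -0.71. The counting interval lay wholly below 1 for 20 of the 37 and for 31.6% of all genes, and wholly above 1 for 5 and for 32.5%. At 1.5-fold, 27 of the 37 lay apart, against 32.1% of all genes. The same edgeR test called 23 of the 37 (52.5% of all genes) and DESeq2 called 8 (20.2% of all genes). Both comparisons use the same Col libraries, so their values are given side by side only.

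ATMG00660 had 76 counts in rps2a2b, against 186 and 233 in Col, 0.341 times the Col level (0.263 to 0.436). ATMG00670 had 37 counts in rps2a2b, against 103 and 130 in Col, 0.298 times the Col level (0.205 to 0.423). ATMG00580 had 131 counts, 0.462 times the Col level (0.379 to 0.560), and ATMG00640 had 38, 0.410 times (0.281 to 0.586). All 4 lay below both Col libraries. ATMG00513 had 9 counts in rps2a2b, against 32 and 21 in Col, 0.319 times the Col level (0.138 to 0.652). ATMG01170 had 49 counts, 0.460 times (0.330 to 0.632), and ATMG01200 had 30, 0.437 times (0.283 to 0.654). ATMG00285 had 2 counts, 0.125 times (0.0145 to 0.494). The more abundant ATMG00090, with 510 counts, was at 0.610 times the Col level (0.551 to 0.674), and ATMG00160, with 374 counts, was at 0.793 times (0.701 to 0.896). ATMG00510 had 83 counts in rps2a2b and 80 in atprmt3, against 149 and 132 in Col, 0.555 times the Col level in rps2a2b (0.429 to 0.711) and 0.456 times in atprmt3 (0.351 to 0.586). ATMG00060 had 131 and 154 counts, against 222 and 174, 0.621 times in rps2a2b (0.506 to 0.759) and 0.622 times in atprmt3 (0.513 to 0.752). ATMG00690 had 74 and 76 counts, against 83 and 108, 0.728 times in rps2a2b (0.549 to 0.957) and 0.637 times in atprmt3 (0.482 to 0.835). ATMG00650 had 33 counts in rps2a2b and 35 in atprmt3, against 46 and 39 in Col, and ATMG00516 had 29 and 18, against 23 and 30. ATMG01120 had 20 counts in rps2a2b and 15 in atprmt3, against 17 in each Col library, and ATMG01380 had 3 and 5, against 6 and 2.

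**Figure D3:**
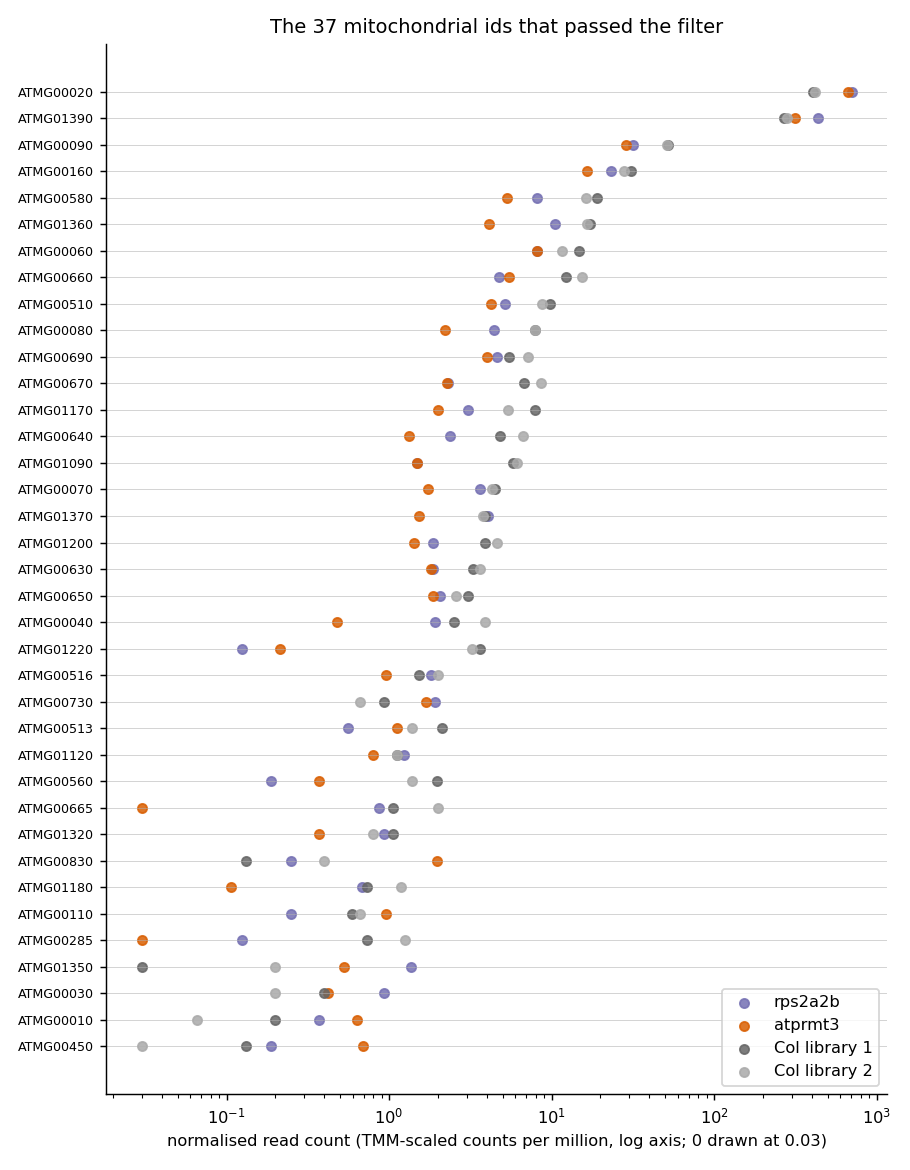
Normalised read count (TMM-scaled CPM, log axis) of the 37 mitochondrial identifiers that passed the filter, 1 point per library, ordered by mean level. ATMG00020 and ATMG01390 lie higher in both mutants than in Col, and 28 of the 37 lie lower than the summed Col libraries in atprmt3 and 26 in rps2a2b.

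The mutants were also set against each other. In rps2a2b, 9 of the 37 identifiers were at least 2-fold higher than in atprmt3 and 3 at least 2-fold lower. Over all genes, 5.81% were at least 2-fold higher and 4.51% at least 2-fold lower. The median log2 ratio was 0.33 over the 36 with a value and 0.00 over all genes. The counting interval lay wholly above 1 for 14 of the 37 and for 24.4% of all genes, and wholly below 1 for 3 and for 24.5%. At 1.5-fold, 22 of the 37 lay apart, against 21.1% of all genes. The edgeR test called 8 of the 37 (25.4% of all genes) and DESeq2 called 2 (3.42% of all genes). ATMG01360 had 168 counts in rps2a2b and 78 in atprmt3, a ratio of 2.53 (1.92 to 3.35). ATMG01370 had 65 counts in rps2a2b and 29 in atprmt3, a ratio of 2.63 (1.67 to 4.23), and ATMG00070 had 58 and 33, a ratio of 2.06 (1.32 to 3.27). ATMG00040 had 31 counts in rps2a2b and 9 in atprmt3, a ratio of 4.04 (1.88 to 9.65). ATMG00080 had 71 and 42, a ratio of 1.98 (1.34 to 2.98), just under 2-fold. The reverse held for ATMG00830, which had 4 counts in rps2a2b and 37 in atprmt3, a ratio of 0.127 (0.0329 to 0.353), against 2 and 6 in Col. ATMG00020 was nearly level between the mutants, at a ratio of 1.05 (1.02 to 1.07), while ATMG01390 was at 1.38 (1.34 to 1.43).

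**Figure D4:**
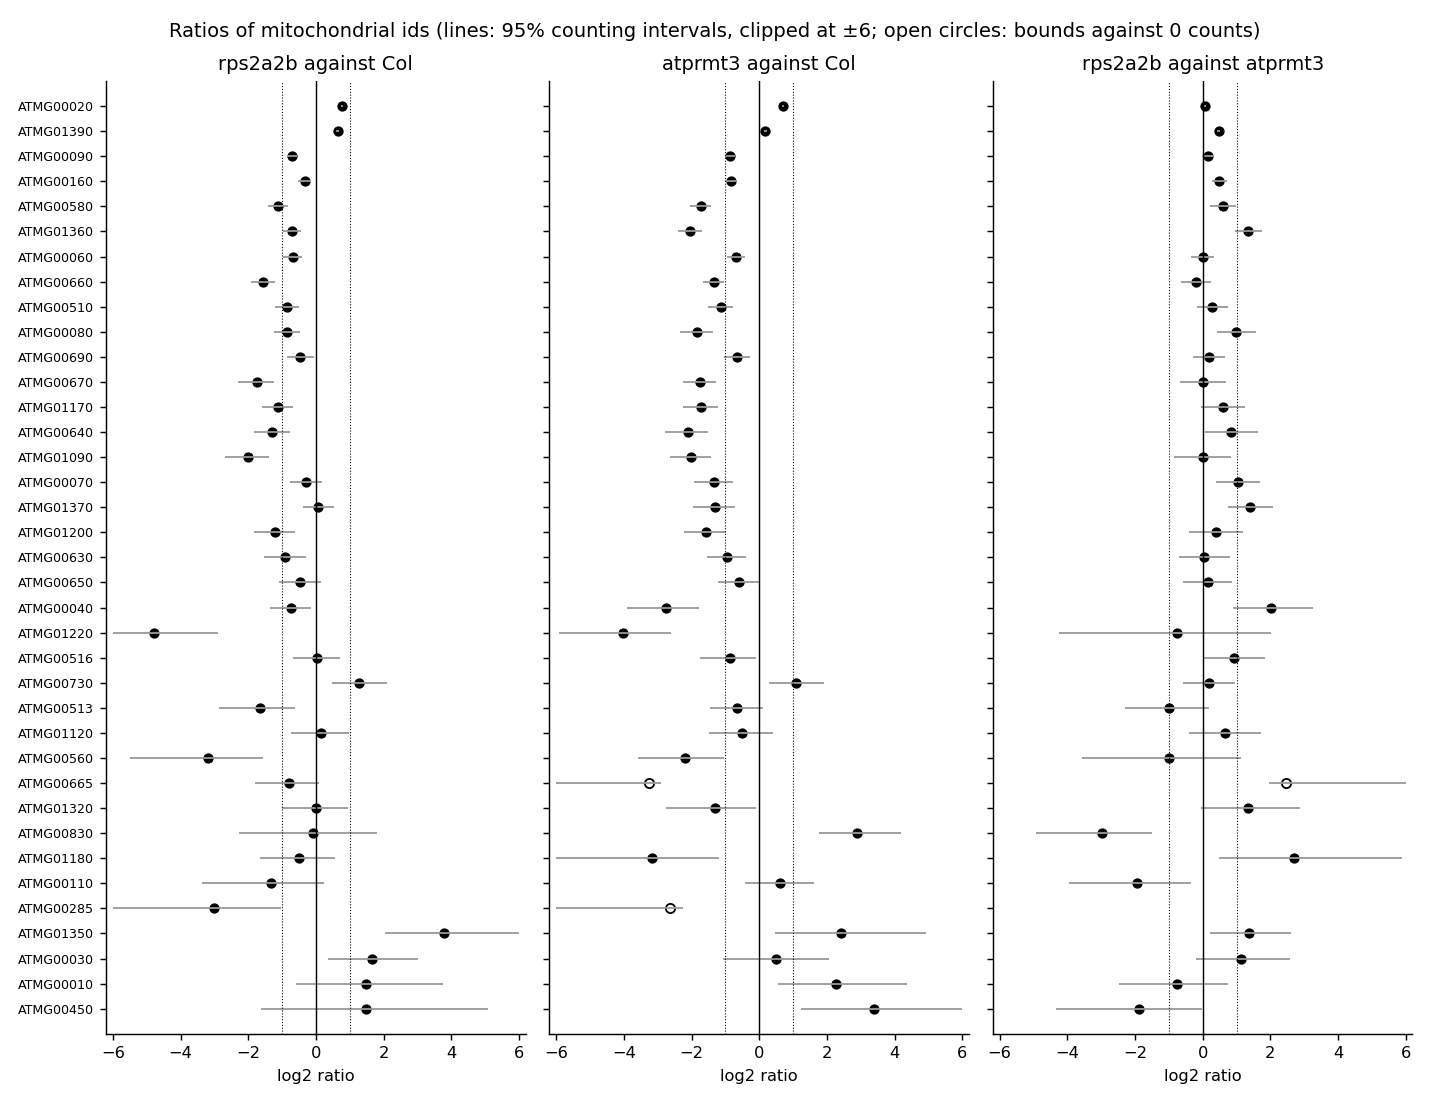
Log2 ratios of the 37 identifiers (rows, in order of mean level) for rps2a2b against Col, atprmt3 against Col and rps2a2b against atprmt3, with 95% counting intervals as lines and 2-fold marked by dotted lines. Open circles are bounds for identifiers with 0 counts in 1 of the groups, and 19 identifiers in atprmt3 and 12 in rps2a2b lie at or beyond 2-fold below Col.

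A small group lay higher in a mutant. Apart from ATMG00730, those named here reached 10 counts only in mutant libraries and passed the filter through them. Their ratios therefore describe identifiers selected by a high mutant count. ATMG00730, noted as cytochrome c oxidase subunit 3, a core subunit of respiratory complex IV, had 31 counts in rps2a2b and 32 in atprmt3, against 14 and 10 in Col. It was 2.43 times the Col level in rps2a2b (1.38 to 4.32) and 2.13 times in atprmt3 (1.22 to 3.79). ATMG01350 had 22 counts in rps2a2b and 10 in atprmt3, against 0 and 3 in Col, ratios of 13.8 (4.14 to 71.9) and 5.34 (1.37 to 30.2). ATMG00830 was 7.40 times the Col level in atprmt3 (3.39 to 18.4), and ATMG00450, with 3 counts in rps2a2b and 13 in atprmt3 against 2 and 0 in Col, was 10.4 times the Col level in atprmt3 (2.36 to 94.97). ATMG00010, with 6 counts in rps2a2b and 12 in atprmt3 against 3 and 1, and ATMG00030, with 15 and 8 against 6 and 3, rest on few reads.

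The identifiers with a named copy were then taken by role. For ATP synthase, ATMG01090, noted as ATP synthase 9, had 24 counts in rps2a2b and 28 in atprmt3, against 87 and 93 in Col. Its noted copy AT2G07777 shared 0 stretches with the coding or RNA sequence of any annotated mitochondrial gene, atp9 included. Whether ATMG01090 holds subunit 9 sequence is therefore not known. ATMG01090 was 0.2505 times the Col level in rps2a2b (0.156 to 0.385) and 0.249 times in atprmt3 (0.161 to 0.372). ATMG01080, noted as subunit 9 of the F0 part and paired with the atp9 copy shown above, had 0 counts in all 4 libraries. Its copy AT2G07671 had 81 counts in rps2a2b and 100 in atprmt3, against 290 and 299 in Col. ATMG01190, noted as ATP synthase subunit 1, the catalytic part's alpha subunit, had 0 and 3 counts in rps2a2b and atprmt3, against 5 and 2 in Col, while its copy AT2G07698 had 58 and 92, against 122 and 117. ATMG00410, noted as ATPase subunit 6, had 11 counts in rps2a2b and 3 in atprmt3, against 0 and 0 in Col.

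For the respiratory complexes, ATMG01320, noted as subunit 2 of NADH dehydrogenase (complex I), had 15 counts in rps2a2b and 7 in atprmt3, against 16 and 12 in Col. The level in atprmt3 was 0.400 times that in Col (0.148 to 0.938). ATMG00990, noted as NADH dehydrogenase 3, and ATMG01275, noted as NADH dehydrogenase 1A, had 0 counts throughout. ATMG00220, noted as apocytochrome b, the haem-carrying core of complex III, also had 0 counts in all 4 libraries, and its copy AT2G07727 had 115 counts in rps2a2b and 58 in atprmt3, against 91 and 81 in Col. ATMG01280, noted as subunit II of cytochrome c oxidase, had 0 counts. Its copy AT2G07695 had 13 counts in rps2a2b and 7 in atprmt3, against 10 and 16 in Col. Of the stretches of the annotated cox2 gene, 18.5% occurred in nuclear chromosomes and 74.2% were unique. The copy shared 122 stretches with cox2 and thus covers only a part of it.

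For the mitochondrial ribosome, ATMG00560 has a copy that shares 767 stretches with rpl2, more than with any other annotated mitochondrial gene. ATMG00560 had 3 counts in rps2a2b and 7 in atprmt3, against 30 and 21 in Col. It was 0.110 times the Col level in rps2a2b (0.0221 to 0.342) and 0.220 times in atprmt3 (0.0841 to 0.486). Its copy AT2G07715, which holds the bases in capitals above, had 111 counts in rps2a2b and 62 in atprmt3, against 74 and 86 in Col. The identifier was thus lower in rps2a2b than in both Col libraries while its copy was higher than both. ATMG00210 (ribosomal protein L5), ATMG00290 (S4) and ATMG01270 (S7) had 0 counts throughout, and their copies had between 0 and 71 in a library. For cytochrome c biogenesis, ATMG00960 had 0 counts in rps2a2b and 8 in atprmt3, against 9 and 6 in Col, ATMG00180 had 3 and 0, against 4 and 2, and ATMG00900 had 0 throughout.

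Of the identifiers with notes that give no function, ATMG01220 was low in both mutants. It had 2 counts in rps2a2b and 4 in atprmt3, against 55 and 49 in Col, 0.0361 times the Col level in rps2a2b (0.00432 to 0.134) and 0.0616 times in atprmt3 (0.0165 to 0.162). Its copy AT2G07798 had 2 counts in each mutant, against 19 and 18 in Col. ATMG01180 had 11 counts in rps2a2b and 2 in atprmt3, against 11 and 18 in Col, and its copy AT2G07667 had 45 and 33, against 131 and 117.

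Over the 46 pairs in which both members are in the count tables, 24 had 0 counts on the identifier and counts on the copy, 5 the reverse, 9 had counts on both and 8 on neither. The identifiers of these pairs summed to 664 counts over the 4 libraries and the copies to 6441. A read from a stretch identical in both places of the sequence aligned to cannot be assigned to the organelle or the nucleus. Yet copies with 100% of their stretches in the RefSeq mitochondrial sequence, such as AT2G07671, AT2G07727 and AT2G07667, held counts. The RefSeq shares therefore do not give which reads could be told apart in the authors' alignment. Whether counts on the copies come from mitochondrial RNA was not tested.

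**Figure D5:**
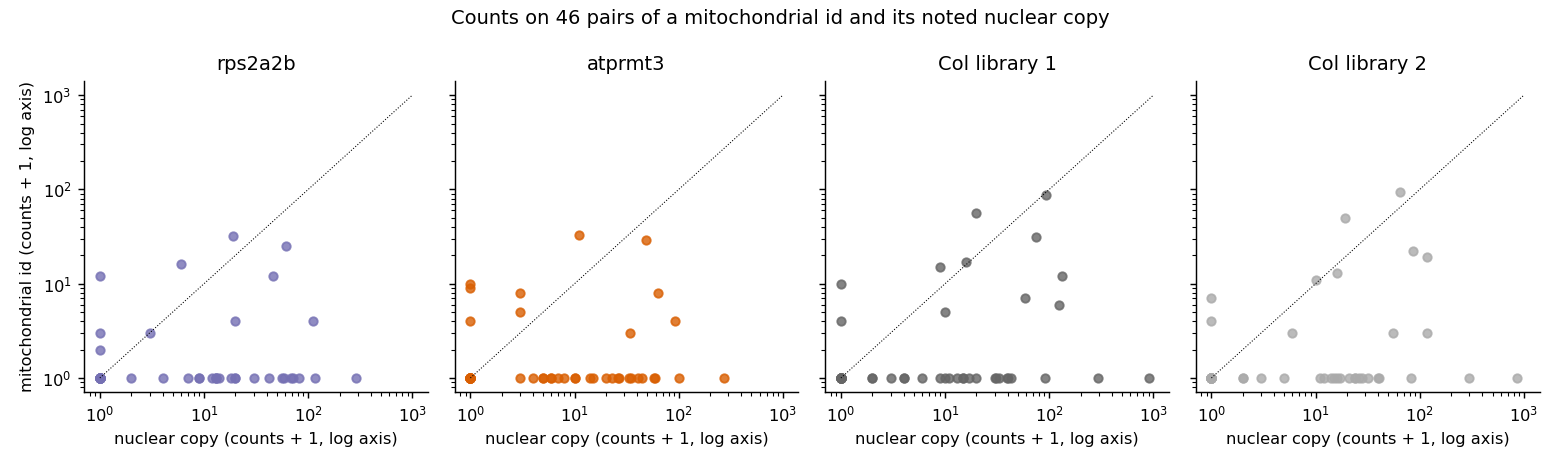
Counts of the mitochondrial identifier (vertical, counts + 1, log axis) against counts of its noted nuclear copy (horizontal, counts + 1, log axis) for 46 pairs, 1 panel per library, with equal counts on the dotted line. Of the 46 pairs, 24 have 0 counts on the identifier in all libraries and counts on the copy.

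All nuclear genes with at least 50% of their stretches in the mitochondrial sequence were also summed. There were 187 in the reference, of which 141 were in the count tables and 58 passed the filter. They held 2449 counts in rps2a2b and 2160 in atprmt3, against 4064 and 4025 in Col. Their share was 0.623 times that of Col in rps2a2b (0.595 to 0.652) and 0.448 times in atprmt3 (0.427 to 0.470), beside 0.655 and 0.483 for the 150 mitochondrial identifiers. Of the 58, 23 were at least 2-fold lower in rps2a2b and 9 higher, and 29 were lower in atprmt3 and 2 higher. Over all genes, 6.19% were lower and 9.97% higher in rps2a2b, and 6.21% lower and 8.95% higher in atprmt3. Some copies were counted only in a mutant, such as AT2G07830, or mostly in Col, such as AT2G07775, and passed the filter through it. AT2G07718, annotated as a cytochrome b/b6 gene at chr2:3424685-3430483, is noted as the copy of ATMG00590. It shared only 60 stretches with cob, the annotated apocytochrome b gene, so how far its counts reflect that gene is not known. It had 286 counts in rps2a2b and 270 in atprmt3, against 908 and 858 in Col. It was 0.304 times the Col level in rps2a2b and 0.245 times in atprmt3, and ATMG00590 itself had 0 counts throughout. AT2G05195, an RNA gene of no annotated function in the same region, had 249 counts in rps2a2b and 221 in atprmt3, against 544 and 536 in Col.

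Genes of the plastid genome, the other organelle genome of the plant cell, are given for comparison. Their 133 identifiers held 1.297% of counts in rps2a2b and 1.12% in atprmt3, against 1.34% in each Col library. Their share was 0.968 times that of Col in rps2a2b (0.963 to 0.973) and 0.838 times in atprmt3 (0.833 to 0.842). Of 92 that passed the filter, 7 were at least 2-fold lower in rps2a2b and 2 higher, and 11 were lower in atprmt3 and 5 higher. The shares over all genes were 6.19% lower and 9.97% higher in rps2a2b, and 6.21% lower and 8.95% higher in atprmt3. The median log2 ratio was 0.09 in rps2a2b and -0.17 in atprmt3. ATCG00480, the plastid identifier with the most counts, was at 3181 CPM in rps2a2b and 3197 in atprmt3, against 3162 and 3188 in Col. ATCG00790 was at 1401 and 1123 CPM, against 1852 and 1832, and ATCG01130 at 1294 and 1164 CPM, against 1637 and 1633.

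The nuclear genes for the same mitochondrial functions were mostly within 2-fold of Col. Of 74 listed genes 73 passed the filter, of which rps2a2b had 2 at least 2-fold higher and 0 lower, and atprmt3 had 0 higher and 2 lower. Among all genes, the shares past 2-fold were 9.97% upward and 6.19% downward in rps2a2b, and 8.95% upward and 6.21% downward in atprmt3. The counting interval lay wholly above 1 for 38 of the 73 and below 1 for 18 in rps2a2b, against 32.5% and 31.6% of all genes. In atprmt3 it lay above 1 for 46 and below 1 for 13, against 33.3% and 31.7% of all genes. Their median log2 ratio was 0.11 in rps2a2b and 0.21 in atprmt3. Between the mutants, 2 were at least 2-fold lower in rps2a2b than in atprmt3, and 0 higher. No gene of the lists for complex I (18 genes), complex V (9), the mitochondrial ribosome (8) or cytochrome c biogenesis (3) lay 2-fold apart in either mutant against Col.

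For complex I, CI51, the subunit that binds NADH, was at 219 CPM in rps2a2b and 211 in atprmt3, against 192 and 196 in Col, and EMB1467 was at 203 and 197, against 186 and 188. For complexes III and IV, MPPBETA, a processing peptidase that is part of plant complex III, was at 310 CPM in both mutants, against 264 and 262. AT1G51980, of the same peptidase family, was at 197 and 205 CPM, against 177 and 173. The genes at least 2-fold higher in rps2a2b were CYTC-2, an electron carrier, with 14.5 CPM in rps2a2b and 11.5 in atprmt3 against 6.41 and 6.29 in Col, and AT3G62400, a cytochrome c oxidase subunit, with 26.9 and 19.4 against 13.2 and 12.7. AT3G15640 was at 20.1 CPM in rps2a2b and 48.2 in atprmt3, against 26.8 and 27.0 in Col.

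For complex V, the beta subunit gene AT5G08670 was at 364 CPM in rps2a2b and 370 in atprmt3, against 422 in each Col library, and AT5G47030 was at 357 and 376, against 429 and 434. Among nuclear genes for mitochondrial gene expression, RIP1, an RNA editing factor, was at 343 CPM in rps2a2b and 306 in atprmt3, against 365 and 363, and the RNA helicase PMH2 was at 66.0 and 64.6, against 56.9 and 53.9. The genes at least 2-fold lower in atprmt3 were ABO5, a splicing factor for mitochondrial transcripts, with 5.91 CPM in rps2a2b and 5.62 in atprmt3 against 11.7 in each Col library, and SHOT1, of the mitochondrial transcription termination factor family, with 6.34 and 5.83 against 11.2 and 12.3. AT4G31010, of the CRM family of RNA-binding proteins, was at 6.28 CPM in rps2a2b and 14.9 in atprmt3, against 9.32 and 11.3 in Col. For the mitochondrial ribosome, AT3G49080 was at 39.3 CPM in rps2a2b and 30.7 in atprmt3, against 26.3 and 25.9, and RPS10 at 29.4 and 30.5, against 23.1 and 24.6. For cytochrome c biogenesis, G1 was at 18.7 CPM in rps2a2b and 17.4 in atprmt3, against 12.8 and 15.1, and ABCI1 was at 10.7 and 9.06, against 6.88 and 8.21.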

How the data were processed

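Per the submitters' processing notes, TopHat2, HTSeq, edgeR and TAIR10 were used, with roles and versions not given there. The authors deposited 1 table of raw counts per library, in whole reads (or pairs) for each gene and not normalized, and the deposited files list reads on no gene, on several genes and with several alignments apart. Read length and strand setting are not given in the sources used here. Library sizes were scaled by TMM factors with edgeR 4.0.16 in R 4.3.3. The filter was edgeR's filterByExpr, with a minimum count of 10 and a minimum total of 15, and DESeq2 1.42.0 was an alternative. CPM is the TMM-scaled count per 1000000. Ratios are of TMM-scaled counts with the Col libraries summed. A count of 0 was set to 3 counts over the group. Nuclear copies and unique stretches were computed on RefSeq TAIR10.1, of which only sequences, notes and symbols were used for names. The procedure was tested on simulated counts. Members and lists were chosen with earlier results of these data known. A list of 40 identifiers, drawn up from general knowledge of mitochondrial genes, served only to choose which to describe, and its gene names are not printed because the reference does not pair them. The identifiers described are those of the list with at least 10 counts, the next 5 by mean CPM and up to 10 others at least 2-fold apart. Of each nuclear list the 2 genes with the highest mean CPM and those 2-fold apart are named. Of the 40, 26 had at least 10 counts.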

Additional observations from a re-analysis of the deposited data

Results flagged for a closer look

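ATMG00830, ATMG00110 and ATMG01370 had point ratios to Col on opposite sides of 1 in the mutants, and the mutant libraries lay at least 2-fold apart with a counting interval off 1. For each, at least 1 of the intervals against Col included 1. No test between genotypes was possible with 1 sample each, so these differences were not tested. ATMG00830 had 4 counts in rps2a2b and 37 in atprmt3, against 2 and 6 in Col, a log2 ratio of -2.98 between the mutants. It passed the filter only through the atprmt3 library, where it was high. Its ratio to Col was 0.939 in rps2a2b (0.207 to 3.51), which passes 1 when libraries are scaled by total counts, and 7.40 in atprmt3 (3.39 to 18.4). ATMG00110 had 4 counts in rps2a2b and 18 in atprmt3, against 9 and 10 in Col, a log2 ratio of -1.94 between the mutants. Its ratio to Col was 0.396 in rps2a2b (0.0979 to 1.19) and 1.52 in atprmt3 (0.751 to 3.05). ATMG01370 had 65 counts in rps2a2b and 29 in atprmt3, against 59 and 57 in Col, a log2 ratio of 1.40 between the mutants. Its ratio to Col was 1.05 in rps2a2b (0.765 to 1.44) and 0.400 in atprmt3 (0.257 to 0.606).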

How the results depend on the processing

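No paired analysis was possible because no mutant library belongs to a particular Col library. Settings with identifiers unique over at least 50% of their stretches, or without ribosomal RNA genes, were not run because the reference does not pair the abundant identifiers with genes. The share ratio depended on ATMG00020 and ATMG01390. Without ATMG00020 it was 1.23 in rps2a2b against Col, 0.864 in atprmt3 against Col and 1.42 in rps2a2b against atprmt3. Without both, a setting chosen after seeing the data, it was 0.655, 0.483 and 1.36. With TMM library sizes it was 1.38, 1.18 and 1.17. The median ratios kept their sign under each setting run. The number of identifiers at least 2-fold apart in rps2a2b against Col, 17 as reported, was 26 without the filter, 27 at 1.5-fold and 8 by DESeq2 calls. In rps2a2b against atprmt3, 12 as reported, it was 22 at 1.5-fold and 2 by DESeq2 calls. DESeq2 calls are at an adjusted p of 0.05 with 1 residual degree of freedom, from the Col libraries alone. Without Col replicate 1 or 2, it was 27 and 23 in atprmt3 against Col and 17 and 15 in rps2a2b against Col. Scaling by total counts moved the median of all genes by 0.13 in rps2a2b against Col (log2). Depth limits identifiers under 20 counts most.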
